A study of Mus musculus with 3 samples.

Results

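The genes described here encode the interleukin-1 (IL-1) and interleukin-18 (IL-18) cytokines with their receptors and inhibitors, and the inflammasome proteins that activate them. The 10 members were taken by name, Il1a, Il1b, Il1rn, Il1r1, Il1r2, Il18, Il18bp, Nlrp3, Casp1 and Gsdmd, out of 32285 genes counted in single cells from isolated mouse glomeruli. The lupus nephritis model was the female MRL/lpr mouse, a strain that carries the lpr mutation of the death receptor gene Fas and develops autoimmune glomerulonephritis. The mice entered the model group at about 16 weeks of age. The treated MRL/lpr animals had received 800000 mesenchymal stem cells from human umbilical cord, called hUC-MSCs, through the tail vein. Untreated and treated MRL/lpr animals were both sampled on day 21. The remaining library was a blank control, whose strain is not given for this experiment in the sources used here. Each condition was 1 library, the number of mice behind a library is not stated, and so no test between conditions was possible.

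IL-1 alpha and IL-1 beta bind the same signalling receptor, encoded by Il1r1, and start NF-kB signalling in the target cell. The antagonist encoded by Il1rn occupies that receptor without signalling, and the decoy receptor encoded by Il1r2 captures IL-1 without passing a signal on. IL-1 beta and IL-18 are made as inactive precursors that caspase-1 cleaves inside the inflammasome, a complex that sensors such as NLRP3 assemble, and gasdermin D, the pore protein cut by the same caspase, lets them out of the cell. Glomerulonephritis brings monocytes, macrophages and neutrophils into the glomerulus, while IL-18 is held back outside cells by the binding protein that Il18bp encodes. Transcript levels do not report cleavage or release.

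The libraries held 11018 control, 14109 untreated MRL/lpr and 16586 treated MRL/lpr cells, with median depths of 5069, 3716 and 2727 unique molecular identifiers (UMIs, the count of captured RNA molecules) per cell. A cell was given a class when at least 3 marker genes of the class were detected and their share of the cell's UMIs was at least 2 times that in free RNA, which was measured in barcodes with 1 to 100 UMIs. Of 15 classes, 7 were compared: inflammatory monocytes, patrolling monocytes, macrophages, neutrophils, endothelial cells, mesangial cells and podocytes. The control library held few leukocytes, with 35 inflammatory monocytes, 79 patrolling monocytes, 28 neutrophils and 6 macrophages, and its macrophages entered no comparison. The untreated library held 321, 1246, 284 and 668 of these cells, and the treated library 376, 1681, 329 and 1108. The neutrophil marker S100a8 stood at 72882, 51660 and 56924 counts per 1000000 UMIs (CPM) in control, untreated and treated neutrophils, and the complement gene C1qa at 2255, 4699 and 2288 CPM in macrophages. Inflammatory monocytes carried 1641, 577 and 537 CPM of Ly6c2, their defining surface marker. Podocytes carried 3470, 1616 and 1311 CPM of Nphs1, mesangial cells 935, 727 and 492 of Itga8, and endothelial cells 960, 1127 and 1101 of Kdr. Ly6c2 and the podocyte and mesangial markers were thus lower in both MRL/lpr libraries than in the control. Ccr2, another marker of inflammatory monocytes, was higher in both, at 171, 289 and 306 CPM. Ratios against the control in inflammatory monocytes may therefore join the makeup of the class with level. Markers of other lineages put the share of free RNA at 3.17 to 7.71% of a class's UMIs in the 6 classes compared in the control library, 8.47 to 20.8% in the untreated and 10.4 to 21.9% in the treated library. Between 35 and 61 cell barcodes were shared by a pair of libraries, at most 0.432% of the smaller one. All levels below are CPM of the UMIs summed over a class, brackets hold exact 95% intervals that cover counting error only, and the spread between mice was not measured.

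The genes lie on 6 chromosomes of the GRCm38 assembly. Il1b (chr2:129364570-129371139), Il1a (chr2:129299610-129309972) and Il1rn (chr2:24336853-24351494) share chromosome 2, and the receptor genes Il1r2 (chr1:40074079-40125231) and Il1r1 (chr1:40225080-40317257) are neighbours on chromosome 1. Il18 (chr9:50554827-50581840) and Casp1 (chr9:5298517-5307265) lie on chromosome 9, Il18bp (chr7:102014885-102018690) on chromosome 7, Nlrp3 (chr11:59541568-59566956) on chromosome 11 and Gsdmd (chr15:75862327-75867408) on chromosome 15. All are annotated as protein-coding.

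The promoters of the cytokine genes Il1a and Il1b, the antagonist gene Il1rn and the sensor gene Nlrp3 are shown. Between the MRL/lpr libraries the summed level of Il1rn in the macrophage class differed in the opposite direction to the others. The RefSeq promoter table of GRCm38.p6 held 13 start sites for 9 of the 10 members. The 250 bases before a start site of 4 of them, 5′ to 3′ on the gene's strand, are chr2:129309973-129310222 (minus strand) for Il1a, chr2:129371140-129371389 (minus strand) for Il1b, chr2:24336610-24336859 (plus strand) for Il1rn and chr11:59542436-59542685 (plus strand) for Nlrp3, and capitals mark matches to the motifs searched.
Il1a: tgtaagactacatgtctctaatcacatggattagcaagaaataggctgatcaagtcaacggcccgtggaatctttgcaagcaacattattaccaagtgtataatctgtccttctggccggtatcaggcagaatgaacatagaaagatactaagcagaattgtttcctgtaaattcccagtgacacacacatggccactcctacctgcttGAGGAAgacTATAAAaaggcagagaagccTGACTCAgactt
Il1b: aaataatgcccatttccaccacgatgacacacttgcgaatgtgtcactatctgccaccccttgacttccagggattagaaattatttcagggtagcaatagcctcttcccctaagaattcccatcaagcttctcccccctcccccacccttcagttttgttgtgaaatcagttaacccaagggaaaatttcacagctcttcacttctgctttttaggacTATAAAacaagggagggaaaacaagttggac
Il1rn: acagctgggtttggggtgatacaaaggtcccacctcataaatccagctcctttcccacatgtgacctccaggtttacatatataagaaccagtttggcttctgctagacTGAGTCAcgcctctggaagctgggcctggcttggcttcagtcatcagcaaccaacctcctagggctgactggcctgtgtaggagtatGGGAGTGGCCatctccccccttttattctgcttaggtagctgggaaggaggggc
Nlrp3: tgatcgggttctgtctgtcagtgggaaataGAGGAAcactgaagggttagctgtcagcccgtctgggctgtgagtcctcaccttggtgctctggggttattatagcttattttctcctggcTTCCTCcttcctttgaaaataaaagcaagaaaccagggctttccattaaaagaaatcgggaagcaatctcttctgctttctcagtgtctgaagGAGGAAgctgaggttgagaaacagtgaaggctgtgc

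The motifs were searched on both strands in all 13 member promoters and in 32536 promoters of the genome. A TATA box (TATAAA, held by 12.3% of all promoters) ended 26 bases before the start in Il1b, at positions -31 to -26, and stood at -32 to -27 in Il1a. Il1a also held the core of a PU.1 site (GAGGAA, 23.4% of all promoters) at -41 to -36 and an AP-1 site (TGANTCA, 6.73%) at -12 to -6. The Nlrp3 promoter shown held 3 copies of the PU.1 core, beginning at -220, -129 and -36. The window of its other start site, next to the annotated gene start, held an NF-kB match at -186 to -177 and no PU.1 core. The Il1b window held no PU.1 core either. The Il1rn promoter shown held a loose NF-kB match (GGG and CC set 5 bases apart, 46.0% of all promoters) at -54 to -45 and an AP-1 match at -141 to -135, and no TATA box in these letters. The interferon response element (GAAA and GAAA set 2 bases apart, 2.98%) and C/EBP motif (TTGCNNAA, 9.57%) matched none of these 4 windows. Matches describe letters and not bound sites.

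Il1b was a myeloid transcript in all 3 libraries. Monocytes, macrophages and neutrophils made up 1.34% of control, 17.9% of untreated and 21.1% of treated cells, and held 83.0%, 81.4% and 65.9% of the Il1b UMIs. In the treated library a further 2691 of the 19011 Il1b UMIs lay in 1137 myeloid cells that passed no gate of a named subset and 1359 in cells without a class. Endothelial cells, mesangial cells and podocytes together held 1.5%, 2.32% and 5.39%.

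**Figure D1:**
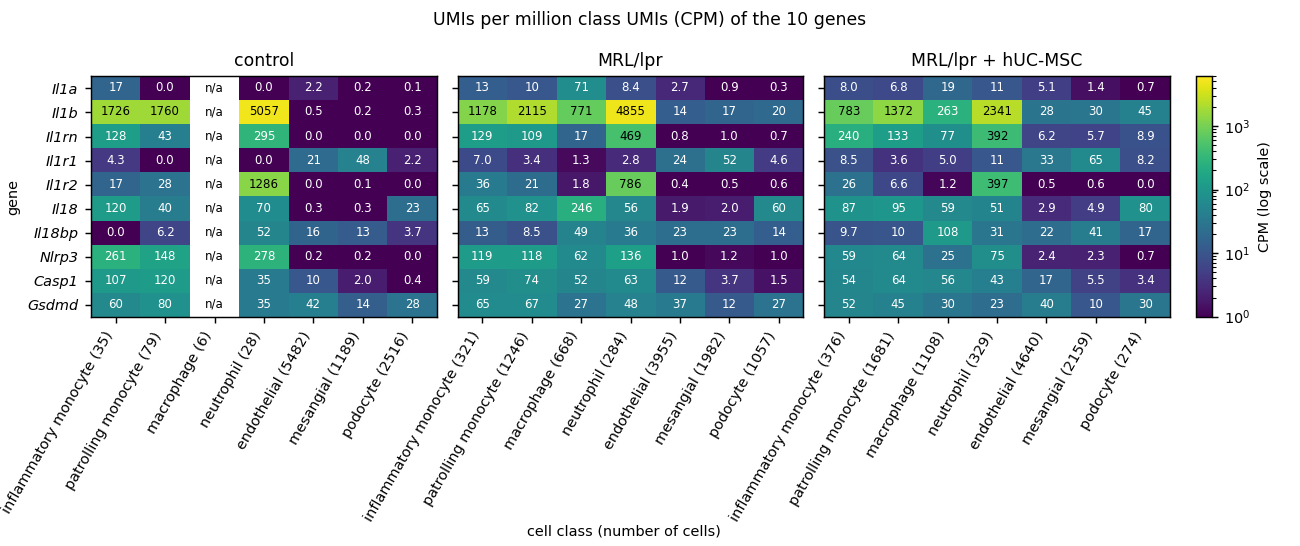
Level of the 10 genes (rows) in 7 cell classes (columns) in the control, untreated MRL/lpr and treated MRL/lpr libraries, coloured by CPM on a log scale; control macrophages (6 cells) are left blank. Il1b is highest in neutrophils (5057, 4855 and 2341 CPM), Il1r1 in mesangial cells and Il1r2 in neutrophils.

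Among the 4 named myeloid classes the order of Il1b levels was the same in the untreated and treated libraries: neutrophils, patrolling monocytes, inflammatory monocytes, macrophages. Neutrophils carried 5057 CPM [4493, 5673] in the control, 4855 [4695, 5020] in the untreated and 2341 [2233, 2453] in the treated library. Patrolling monocytes carried 1760, 2115 and 1372 CPM. Inflammatory monocytes carried 1726, 1178 and 783 CPM, and in the control library their interval overlapped that of patrolling monocytes. Macrophages carried 771 CPM in the untreated and 263 CPM in the treated library, and the 6 control macrophages held 59 UMIs.

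Every one of these 4 classes therefore had less Il1b in the treated than in the untreated library. The log2 ratio was -1.55 [-1.64, -1.46] in macrophages, -1.05 [-1.14, -0.97] in neutrophils, -0.62 [-0.67, -0.58] in patrolling monocytes and -0.59 [-0.69, -0.49] in inflammatory monocytes. Against the control library the untreated levels were closer in neutrophils and patrolling monocytes, with log2 ratios of -0.06 [-0.23, 0.12] and 0.26 [0.14, 0.39]. In inflammatory monocytes the untreated over control ratio was -0.55 [-0.70, -0.40], with an interval that overlapped that of treated over untreated. Both comparisons share the untreated library, so a low or high value in it moves the 2 ratios in opposite directions.

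The lower summed level was also seen per cell. The median neutrophil held 10.5 Il1b UMIs in the control, 10 in the untreated and 3 in the treated library, at median depths of 1258.5, 1821 and 1717 UMIs. Cells with at least 10 Il1b UMIs were 55.3% of untreated and 21.6% of treated neutrophils, and 15.6% and 1.81% of macrophages. With every cell thinned to 1000 UMIs, Il1b was detected in 91.2% of untreated and 64.6% of treated neutrophils (96.1% and 72.3% before thinning), and in 42.9% and 22.0% of macrophages (75.4% and 41.2%). Podocytes, whose Il1b is compared with free RNA further on, gave 3.31% and 7.40% on the same thinned scale (8.23% and 13.5%), from median depths of 6785 and 3992.5 UMIs. The shares of neutrophils and macrophages thus stood above that of podocytes, which itself was higher in the treated library.

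Immediate early genes, which tissue digestion is known to induce, were read in the same cells because Il1b is inducible too. The list (Fos, Fosb, Jun, Junb, Egr1, Atf3, Dusp1 and Ier2) was chosen after the members' values were seen. Its summed level was 7924, 10430 and 6768 CPM in control, untreated and treated neutrophils, and 6328 and 5025 CPM in untreated and treated macrophages. In inflammatory monocytes it was 11526, 7803 and 6543 CPM, the same order as their Il1b, and in patrolling monocytes 9501, 7514 and 6643 CPM. From untreated to treated the sum was lower in each of these classes, as Il1b was. In neutrophils and patrolling monocytes the order of the control and untreated libraries was not that of their Il1b. The control and untreated Il1b intervals of neutrophils overlapped. Between treated and untreated, 1 of the 8 genes was at least 2-fold lower in inflammatory monocytes and 0 of 8 differed by 2-fold in the other 3 classes. Heat shock genes (Hspa1a, Hspa1b, Dnajb1 and Hspb1) summed to 2172, 851 and 1494 CPM in neutrophils and 2120, 1070 and 1185 in inflammatory monocytes. They summed to 1452, 717 and 1363 CPM in patrolling monocytes, and to 955 and 1327 in untreated and treated macrophages. Treated over untreated, 2 of 4 were at least 2-fold higher in neutrophils and in patrolling monocytes, 1 of 4 in each other class, and 0 lower. The part of either list in the Il1b values was not tested.

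Il1a was sparse, and its UMIs had another distribution. In the control library 63 of its 94 UMIs lay in endothelial cells, which were 49.8% of the cells. Monocytes, macrophages and neutrophils, 1.34% of control cells, held 6.38%. In the untreated library these myeloid classes, 17.9% of cells, held 71.0% of 528 UMIs, and in the treated library, at 21.1% of cells, 41.6% of 387. By level, inflammatory monocytes carried 17.1, 13.5 and 7.98 CPM, from 4, 27 and 14 UMIs. Patrolling monocytes carried 0, 10.5 and 6.82 CPM. The shares thus follow the number of cells as well as the level. The level in macrophages was 71.5 CPM [63.4, 80.3] untreated and 19.2 [15.6, 23.4] treated, a log2 ratio of -1.89 [-2.24, -1.56]. Endothelial cells carried 2.23, 2.73 and 5.08 CPM, against 0.1, 0.418 and 0.545 CPM that free RNA would add, and the treated over untreated log2 ratio was 0.90 [0.39, 1.42]. Il1a was thus lower in treated macrophages and, below the 2-fold limit, higher in treated endothelial cells.

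Il1rn, the receptor antagonist, did not follow Il1b. Neutrophils carried 295 CPM [172, 473] in the control, 469 [421, 522] in the untreated and 392 [348, 439] in the treated library. Inflammatory monocytes carried 128, 129 and 240 CPM, with a treated over untreated log2 ratio of 0.90 [0.67, 1.13]. Patrolling monocytes carried 43.2, 109 and 133 CPM, of which the untreated over control ratio passed 2-fold (log2 1.34 [0.58, 2.22], from 616 and 14 UMIs). In macrophages the level was 16.9 CPM [13.1, 21.5] untreated and 76.9 [69.5, 84.8] treated, a log2 ratio of 2.18 [1.81, 2.58]. Macrophages therefore had the largest Il1rn difference of the 4 myeloid classes between treated and untreated libraries, and neutrophils alone had a lower level, with a log2 ratio of -0.26 [-0.49, -0.03]. The median cell of each class held 0 Il1rn UMIs. Cells with at least 10 held 21.3% untreated and 35.2% treated of the UMIs of inflammatory monocytes (3 and 9 cells), and 0% and 22.5% of those of macrophages (0 and 6 cells). In neutrophils they held 24.5% and 8.50%, and in patrolling monocytes 6.33% and 2.44%.

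**Figure D2:**
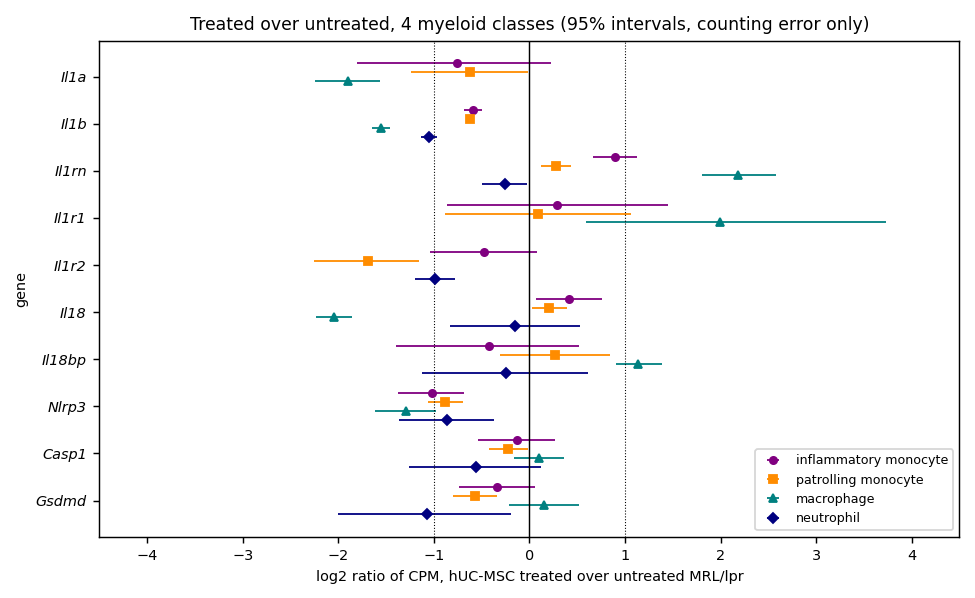
Log2 ratio of treated over untreated CPM (horizontal axis) for each of the 10 genes in the 4 myeloid classes, with exact 95% counting intervals; dotted lines mark 2-fold. In macrophages Il1b, Il1a, Il18 and Nlrp3 lie left of the lower line and Il1rn, Il1r1 and Il18bp right of the upper one.

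The balance of antagonist and cytokine was read as Il1rn UMIs per 100 Il1b UMIs, which is compared only between libraries and not read as a level of either gene. In macrophages it was 2.20 [1.70, 2.80] untreated and 29.2 [26.1, 32.7] treated. In inflammatory monocytes it was 7.43 [4.95, 10.8] in the control, 10.9 [9.58, 12.5] in the untreated and 30.7 [27.4, 34.2] in the treated library. Patrolling monocytes had 2.45, 5.17 and 9.66, and neutrophils 5.84, 9.67 and 16.7. The ratio was higher in the treated than in the untreated library in all 4 classes, with intervals that did not overlap.

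**Figure D3:**
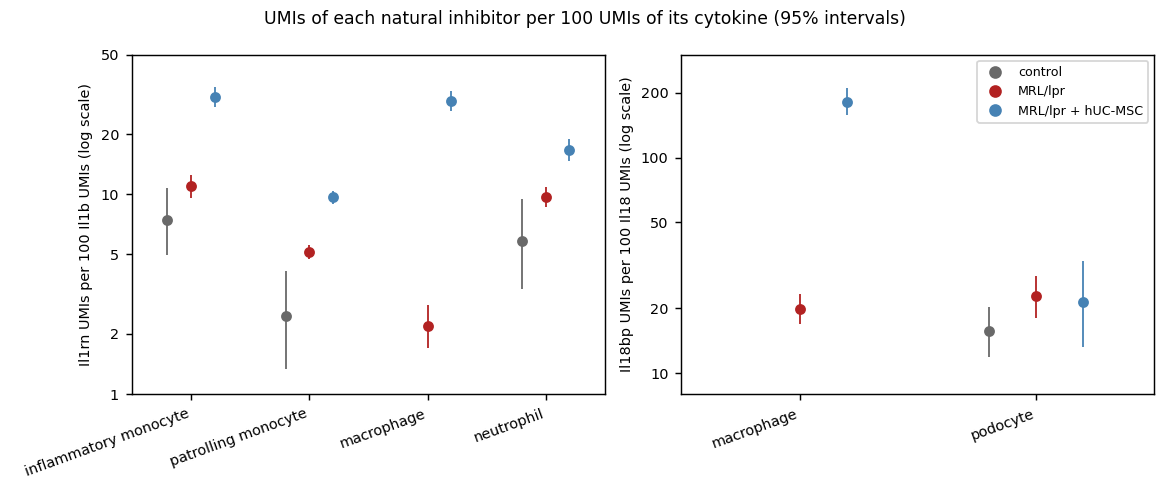
Il1rn UMIs per 100 Il1b UMIs in the 4 myeloid classes, and Il18bp UMIs per 100 Il18 UMIs in macrophages and podocytes, by library, with 95% counting intervals. The macrophage values go from 2.20 to 29.2 and from 19.9 to 182 between the untreated and treated libraries, while Il18bp per 100 Il18 in podocytes stays between 15.7 and 22.7.

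The receptor genes divided between glomerular and myeloid cells. Il1r1, the signalling receptor, stood at 48.1 CPM [44.9, 51.4] in control, 51.9 [47.8, 56.2] in untreated and 64.6 [60.5, 68.9] in treated mesangial cells, the contractile cells that hold the capillary tuft. Endothelial cells carried 20.9, 24.5 and 32.9 CPM, and cells of the distal nephron or collecting duct 28.7, 26.0 and 25.1. Endothelial cells, mesangial cells and podocytes together held 87.7%, 71.4% and 72.3% of the Il1r1 UMIs. Smooth muscle or renin cells, which were few (26, 49 and 44), carried 40.9 CPM [13.3, 95.4], 22.2 [6.05, 56.9] and 106 [66.9, 158], from 5, 4 and 23 UMIs. Of the 7 classes compared the level was thus highest in mesangial cells in each library, while the few smooth muscle or renin cells of the treated library stood above them with an interval that overlapped theirs. The differences of mesangial and endothelial cells between libraries were below 2-fold. Past 2-fold were podocytes of the untreated over the control library (2.19 and 4.6 CPM, log2 1.07 [0.36, 1.77]) and macrophages of the treated over the untreated library (1.26 and 5.05 CPM, log2 2.00 [0.60, 3.74]), the latter from 5 and 26 UMIs against 1.63 and 2.78 CPM expected of free RNA, so that the untreated level was 0 once free RNA was subtracted.

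Il1r2, the decoy receptor, was a neutrophil transcript, and neutrophils held 66.7%, 61.6% and 54.6% of its UMIs. Their level was 1286 CPM [1010, 1614] in the control, 786 [722, 854] in the untreated and 397 [353, 445] in the treated library, so it was lower at each of these steps. The log2 ratios were -0.71 [-1.06, -0.34] and -0.99 [-1.19, -0.78], both short of 2-fold. Patrolling monocytes carried 27.7, 21.5 and 6.65 CPM and passed it between treated and untreated (log2 -1.69 [-2.25, -1.16]). The 9 neutrophil markers of the gate summed to 543, 3272 and 1257 CPM in these patrolling monocytes, against 195412, 151840 and 161100 in neutrophils, with 2 at 0 in the control library and none in the others. From untreated to treated 7 of 9 were lower, 6 of them by at least 2-fold, S100a8 standing at 1079 and 427 CPM and Cxcr2 at 5.68 and 2.22. Their part in the Il1r2 difference was not tested. Inflammatory monocytes carried 17.1, 36.5 and 26.2 CPM, and the interval of their untreated over control ratio, 1.09 [-0.32, 3.01], held 0, with a control count of 4 UMIs. The neutrophil markers summed to 145, 1397 and 1196 CPM in inflammatory monocytes, 5 of 9 being at 0 in the control library and 1 in each of the others.

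Il18 UMIs lay mostly in podocytes in the control library and mostly in macrophages and monocytes in the MRL/lpr libraries. Control monocytes, 1.03% of the cells, held 7.93% of them (41 of 517), untreated monocytes 24.3% and treated monocytes 39.4%. Podocytes, the epithelial cells of the filtration barrier, held 82.6%, 17.4% and 6.5% of its UMIs, and macrophages 0.387%, 39.7% and 17.0%, while podocytes made up 2516 control, 1057 untreated and 274 treated cells. The podocyte level itself was higher in the MRL/lpr libraries, at 23.4 CPM [21.2, 25.7], 59.5 [54.0, 65.5] and 80.2 [66.4, 96.2], against at most 3.45 CPM expected of free RNA. The untreated over control log2 ratio was 1.35 [1.15, 1.54] and the treated over untreated ratio 0.43 [0.12, 0.73]. A smaller podocyte share of the transcript thus stood beside a higher level per podocyte UMI.

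In macrophages Il18 was 246 CPM [231, 262] untreated and 59.4 [52.9, 66.5] treated, a log2 ratio of -2.05 [-2.24, -1.86]. Monocytes did not share this difference: inflammatory monocytes carried 120, 65 and 86.6 CPM and patrolling monocytes 40.1, 82.3 and 95.1 CPM. Both control monocyte levels stood above the 23.4 CPM of control podocytes, from 28 UMIs in inflammatory and 13 in patrolling monocytes. The interval of the patrolling level overlapped that of podocytes. The patrolling level passed 2-fold between untreated and control (log2 1.04 [0.25, 1.96], from 464 and 13 UMIs), and fell short of it under 6 alternative settings, at 0.859 to 0.995.

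Il18bp, which encodes the soluble inhibitor of IL-18, was read in macrophages and in all 3 glomerular classes. It stood at 49.0 CPM [42.3, 56.4] in untreated and 108 [99.2, 117] in treated macrophages (log2 1.14 [0.90, 1.38]), the opposite direction to Il18. Mesangial cells carried 12.7, 22.9 and 40.6 CPM, endothelial cells 16.5, 23.5 and 22.3, and podocytes 3.67, 13.5 and 17.1. The podocyte level passed 2-fold between untreated and control (log2 1.88 [1.42, 2.35]). Per 100 Il18 UMIs there were 19.9 [17.0, 23.3] of Il18bp in untreated and 182 [158, 210] in treated macrophages. In podocytes the same ratio was 15.7, 22.7 and 21.4, with overlapping intervals between the MRL/lpr libraries.

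Of the inflammasome genes, Nlrp3 was mainly a myeloid transcript and was lower in the treated library in each myeloid class. Inflammatory monocytes carried 261 CPM [199, 335], 119 [105, 136] and 58.7 [47.9, 71.2], and both of their log2 ratios passed 2-fold (-1.13 [-1.54, -0.70] and -1.02 [-1.37, -0.69]). The former fell short of 2-fold with 2 markers (-0.98) and the latter under 4 alternative settings (-0.97 to -0.82). Neutrophils carried 278, 136 and 74.6 CPM, patrolling monocytes 148, 118 and 64.1, and macrophages 61.9 in the untreated and 25.2 in the treated library (log2 -1.29 [-1.61, -0.98]). Among the classes compared, the sensor thus had its highest level in control monocytes and neutrophils, which were few.

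Casp1 and Gsdmd, the caspase and the pore protein, differed less. Casp1 stood at 107, 59.5 and 54.1 CPM in inflammatory monocytes, 120, 74.4 and 63.7 in patrolling monocytes, and 52.3 and 55.9 in untreated and treated macrophages. T or NK cells carried 49.5, 42.8 and 57.6 CPM and endothelial cells 10.5, 11.7 and 17.1. Gsdmd stood at 59.8, 65.5 and 51.9 CPM in inflammatory monocytes and 80.2, 66.9 and 45.2 in patrolling monocytes. The treated over untreated log2 ratio of the latter was -0.57 [-0.80, -0.34]. Macrophages carried 27.3 CPM untreated and 30.3 treated. Gsdmd was also a transcript of endothelial cells (42.2, 37.1 and 39.7 CPM) and podocytes (27.8, 27.5 and 30.2 CPM), whose levels differed little between libraries. In neutrophils it was 47.6 CPM in the untreated and 22.7 CPM in the treated library (log2 -1.07 [-2.01, -0.19]), from 34 and 17 UMIs. No Casp1 ratio with at least 20 UMIs passed 2-fold, while podocytes, with 8, 11 and 5 UMIs of Casp1, had too few to be read.

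Counted over the myeloid classes, the members past 2-fold were 0 higher and 1 lower of 10 with enough counts in treated over untreated inflammatory monocytes (Nlrp3), where 2.5% of all genes were higher and 2.67% lower. They were 0 and 1 of 10 in patrolling monocytes (Il1r2), against 3.58% and 3.83%, and 0 and 2 of 8 in neutrophils (Il1b and Gsdmd), against 8.27% and 4.19%. In neutrophils Il1b fell short of 2-fold with at least 2000 UMIs per cell (-0.83) and with 4 markers (-0.87), and Gsdmd under 4 alternative settings (-0.91 to -0.54). In macrophages 3 were higher (Il1rn, Il1r1 and Il18bp) and 4 lower (Il1a, Il1b, Il18 and Nlrp3) of 9, against 4.26% and 6.41% of 11656 genes. The median log2 ratio of the members was -0.38, -0.39, -0.71 and 0.10 in these classes in the order given, beside -0.02, 0.01, 0.06 and -0.11 over all genes. Macrophages thus had the largest number of members past the limit, in both directions.

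Between the untreated and control libraries the counts were 1 higher (Il1r2) and 1 lower (Nlrp3) of 9 in inflammatory monocytes, where 10.2% of all genes were higher and 11.5% lower. They were 2 (Il1rn and Il18) and 0 of 9 in patrolling monocytes, against 11.3% and 9.26%, and 0 and 1 (Nlrp3) of 8 in neutrophils, against 17.9% and 11.5%. Il1r2 in inflammatory monocytes fell short of 2-fold under 3 alternative settings (0.24 to 0.62), and Nlrp3 in neutrophils under 3 (-0.997 to -0.752). The median log2 ratio of the members was -0.34, 0.18 and -0.18 in this order, beside -0.11, 0.00 and 0.01 over all genes. The median of patrolling monocytes was the ratio of Il1a, from 59 untreated and 0 control UMIs, with the 0 set to 3 counts. At most 2 members thus passed 2-fold in any of these myeloid classes.

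Because macrophage genes differed between the MRL/lpr libraries, the macrophages were split by whether a UMI of Cd5l, or of Trem2 or Gpnmb, was detected. The split was chosen after the values were seen. Cd5l marks a scavenging resident type, and Trem2 and Gpnmb mark lipid-handling macrophages. Across all macrophages Gpnmb stood at 15.9 CPM untreated and 782 treated, and Cd5l at 609 and 83.9 CPM. Cells with Trem2 or Gpnmb only were 111 of 668 untreated and 785 of 1108 treated macrophages, and cells with Cd5l only were 246 and 28. The makeup of the macrophages thus differed between the MRL/lpr libraries, and a difference of the whole class joins makeup with level. The subsets were not alike in the 2 libraries either. In cells with Trem2 or Gpnmb only, 103 of the 111 untreated cells held a Trem2 UMI and 20 a Gpnmb UMI, against 708 and 479 of the 785 treated cells, and Gpnmb stood at 65.3 and 941 CPM. A ratio within this subset, or within cells with both marker sets (Gpnmb at 19.1 and 409 CPM), therefore still joins makeup with level. Detecting a marker UMI also depends on depth, and the median macrophage held 5433 UMIs untreated and 3766 treated. A cell counted as lacking a marker may hold it undetected, so ratios within the subsets without Trem2 or Gpnmb may join makeup with level too.

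**Figure D4:**
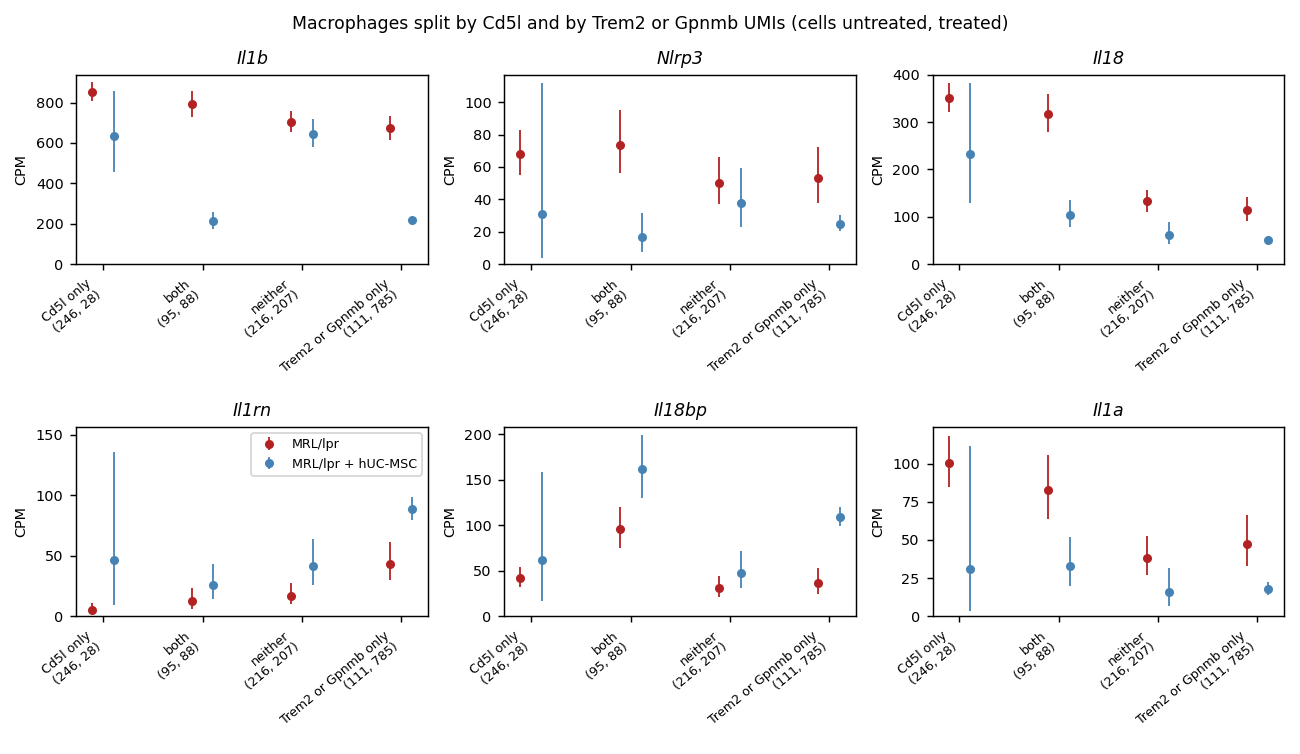
Level (CPM) of Il1b, Nlrp3, Il18, Il1rn, Il18bp and Il1a in 4 macrophage subsets of the untreated and treated MRL/lpr libraries, with exact 95% counting intervals. Il1b is lower in the treated library in cells with Trem2 or Gpnmb (674 and 216 CPM) and close in cells with neither marker set (706 and 646 CPM).

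The Il1b level was lower in treated macrophages with Trem2 or Gpnmb only (674 and 216 CPM, log2 -1.64 [-1.80, -1.48]) and in those with both marker sets (791 and 213 CPM, log2 -1.89 [-2.19, -1.61]). In macrophages with Cd5l only it was 854 and 634 CPM (log2 -0.43 [-0.92, 0.02]), and in those with neither set 706 and 646 CPM (log2 -0.13 [-0.32, 0.06]). The intervals of the subsets with Trem2 or Gpnmb thus did not overlap those of the subsets without them. Within the untreated library the 4 subsets lay between 674 and 854 CPM.

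Other members were read in the same subsets. Il18 had a log2 ratio of -1.19 [-1.56, -0.80] in cells with Trem2 or Gpnmb only, -1.60 [-2.05, -1.18] in cells with both sets and -1.10 [-1.71, -0.52] in cells with neither. Il1rn had 1.02 [0.50, 1.59], 1.01 [-0.26, 2.35] and 1.30 [0.30, 2.31] in the same subsets, each below its ratio of 2.18 over the whole class. Il18bp had 1.57 [1.01, 2.19], 0.76 [0.30, 1.22] and 0.62 [-0.21, 1.44], and Nlrp3 -1.10 [-1.65, -0.53], -2.16 [-3.36, -1.14] and -0.40 [-1.25, 0.38]. In the cells with Cd5l only, of which the treated library held 28, the log2 ratio was -0.60 [-1.45, 0.13] for Il18, 0.55 [-1.37, 1.98] for Il18bp and -1.14 [-4.20, 0.75] for Nlrp3. Il1rn stood there at 5.55 CPM [2.40, 10.9] untreated and 46.4 [9.56, 136] treated, from 8 and 3 UMIs, too few for a ratio by the limit used. Il1a had -1.44 [-2.04, -0.81] in cells with Trem2 or Gpnmb only, -1.32 [-2.16, -0.55] with both sets and -1.26 [-2.57, -0.13] with neither. With Cd5l only it had -1.70 [-4.76, 0.18], from 145 untreated and 2 treated UMIs. Of these members, Il18 and Il1a had intervals below 0 in 3 subsets, and Il1rn, Il18bp and Nlrp3 had intervals clear of 0 in 2.

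In endothelial cells, mesangial cells and podocytes several members passed 2-fold at levels that free RNA would give. Free RNA itself held 38.9 CPM of Il1b in the control, 247 in the untreated and 250 in the treated library. Endothelial cells carried 0.495, 13.6 and 28.4 CPM of Il1b, where their share of free RNA would give 1.67, 22.9 and 28.4. Mesangial cells carried 0.229, 17.2 and 30.0 CPM against 3, 25.8 and 35.0, and podocytes 0.329, 19.8 and 45.3 [35.0, 57.6] against 1.23, 24.4 and 39.1. Measured Il1b was therefore at or below this amount in each glomerular class and library except treated podocytes, whose interval held it.

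**Figure D5:**
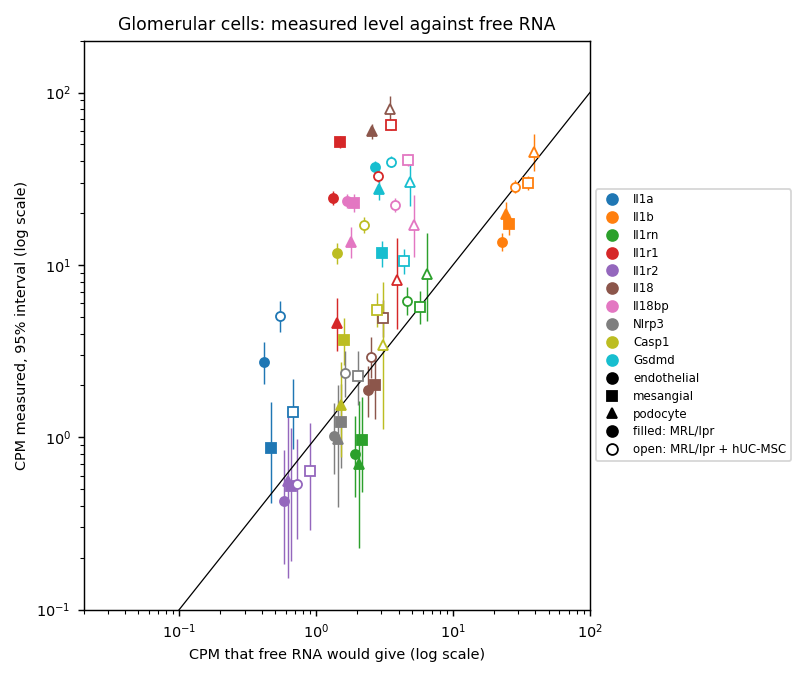
Measured CPM (vertical, log axis) against the CPM expected of free RNA (horizontal, log axis) for members in endothelial cells, mesangial cells and podocytes of the untreated (filled) and treated (open) MRL/lpr libraries, with the line of equality and 95% counting intervals. Il1b, Nlrp3 and Il1rn lie near or below the line, and Il1r1, Il18bp, Gsdmd and podocyte Il18 lie above it.

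Untreated over control, the members past 2-fold were 3 higher and 0 lower of 8 in endothelial cells (Il1b, Il18 and Nlrp3, all at or below the free RNA level), where 11.7% of all genes were higher and 6.01% lower. They were 2 and 0 of 6 in mesangial cells (Il1b and Il18), against 11.3% and 5.69%, and 4 and 0 of 5 in podocytes (Il1b, Il1r1, Il18 and Il18bp), against 10.9% and 5.4%. Treated over untreated, they were 3 and 0 of 9 in endothelial cells (Il1b, Il1rn and Nlrp3), against 6.76% and 4.75%, 2 and 0 of 9 in mesangial cells (Il1rn and Il18), against 5.05% and 5.87%, and 1 and 0 of 5 in podocytes (Il1b), against 6.36% and 4.14%. The median log2 ratio of the members was 0.40, 0.88 and 1.35 untreated over control and 0.65, 0.80 and 0.43 treated over untreated in these classes, beside 0.04, 0.02 and -0.03 and 0.13, 0.12 and 0.03 over all genes. Treated endothelial cells carried 6.2 CPM of Il1rn and 2.35 of Nlrp3, where free RNA would give 4.65 and 1.64, and treated mesangial cells 5.70 of Il1rn and 4.93 of Il18, where it would give 5.74 and 3.10. Of the differences past 2-fold, those above free RNA in both libraries were Il18, Il18bp and Il1r1 in podocytes.

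The wider pathway was read in 46 further genes, grouped as ligands, receptors, adaptors, inflammasome sensors, other caspases and pore proteins, and genes that IL-1 is known to induce. Untreated over control, 3 were higher and 6 lower of 31 with enough counts in inflammatory monocytes, 6 and 5 of 34 in patrolling monocytes, 3 and 3 of 24 in neutrophils, 6 and 2 of 33 in endothelial cells, 4 and 0 of 30 in mesangial cells and 11 and 0 of 26 in podocytes. Treated over untreated, the counts were 0 and 1 of 32, 1 and 0 of 34, 1 and 3 of 31, 3 and 3 of 35, 1 and 9 of 33 and 5 and 4 of 27 in the same order, and 1 and 5 of 33 in macrophages. The shares of all genes past 2-fold given above for each comparison are the background of these counts. In inflammatory monocytes, for example, it was 10.2% higher and 11.5% lower untreated over control. Podocytes had 11 higher of 26, where 10.9% of all genes were higher, and treated mesangial cells 9 lower of 33, where 5.87% were lower.

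Among ligands and signalling genes, Il33, the endothelial alarmin of the IL-1 family, stood at 85.9, 23.3 and 23.4 CPM in endothelial cells, with an untreated over control log2 ratio of -1.88 [-2.03, -1.73]. Myd88, the adaptor of IL-1 and Toll-like receptors, was lower in treated endothelial cells (51.2 and 19.1 CPM, log2 -1.42 [-1.60, -1.24]) and mesangial cells (44.2 and 20.2 CPM, log2 -1.13 [-1.34, -0.92]). Pycard, the inflammasome adaptor, was higher in untreated than in control patrolling monocytes (103 and 24.7 CPM, log2 2.06 [1.08, 3.28]) and lower in endothelial cells (16.6 and 38.3 CPM, log2 -1.20 [-1.39, -1.02]). Casp4, the caspase that senses bacterial lipopolysaccharide, was at 83.8, 172 and 122 CPM in endothelial cells and passed 2-fold between untreated and control there (log2 1.04 [0.96, 1.11]) and in podocytes (log2 1.94 [1.58, 2.31]). Gsdme, another gasdermin, was lower in treated macrophages (40.4 and 13.6 CPM, log2 -1.57 [-2.00, -1.16]).

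Of the IL-1 induced genes, most differed between the MRL/lpr libraries in mesangial cells. Whether IL-1 had a part in these differences was not tested. In treated over untreated mesangial cells 7 of 8 were lower and 1, Saa3, higher, with a median log2 ratio of -2.46, where 5.87% of all genes were lower, 5.05% higher and their median was 0.12. Cxcl1, a neutrophil attractant, stood at 2326, 3284 and 353 CPM and Cxcl2, its close relative, at 250, 1094 and 125 CPM in control, untreated and treated mesangial cells. The treated over untreated log2 ratios were -3.22 [-3.26, -3.18] and -3.13 [-3.21, -3.06]. Il6 stood at 224, 830 and 115 CPM and Ptgs2, the inducible cyclooxygenase, at 46.0, 330 and 65.4 CPM. Free RNA would give at most 44.8 CPM of Cxcl1 and 45.8 of Cxcl2 in these cells. In treated macrophages Saa3, an acute phase protein gene, was at 19.6 CPM against 1.77 untreated (log2 3.47 [2.38, 4.82], from 101 and 7 UMIs).

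In endothelial cells 3 of 7 IL-1 induced genes were higher and 0 lower untreated over control (median log2 ratio 0.81), where 11.7% of all genes were higher. Il6 stood at 12.0, 86.9 and 59.9 CPM (untreated over control log2 2.86 [2.69, 3.03]), Cxcl2 at 20.9, 77.6 and 76.0 (log2 1.89 [1.75, 2.03]) and Ptgs2 at 0.883, 6.96 and 3.96 (log2 2.98 [2.35, 3.66]). Free RNA would give 11.0, 32.6 and 4.70 CPM of these in the untreated library. Treated over untreated, 1 of 8 was higher (Saa3) and 2 lower (Cxcl1 and Nfkbia), with a median of -0.84, where 6.76% of all genes were higher and 4.75% lower.

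The immediate early genes were read in the mesangial and endothelial cells. Their summed level in mesangial cells was 28066, 23481 and 7149 CPM, and 8 of 8 were at least 2-fold lower in the treated than in the untreated library. From control to untreated their sum was lower, while Cxcl1, Cxcl2, Il6 and Ptgs2 were each higher. In endothelial cells it was 31214, 26880 and 10211 CPM, with 7 of 8 lower in the treated library. Their part in the differences of Cxcl1, Cxcl2, Il6 and Ptgs2 was not tested. The heat shock genes summed to 14941, 2777 and 3593 CPM in mesangial cells, another order than that of the immediate early genes. In endothelial cells they summed to 16979, 12216 and 7288 CPM, the same order as that of the immediate early genes there.

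In podocytes 7 of 7 IL-1 induced genes with enough counts were higher in the untreated than in the control library, with a median log2 ratio of 2.01 beside -0.03 over all genes. Of all genes, 10.9% were higher and 5.4% lower there. Cxcl2 stood at 2.08 CPM in the control and 38.6 in the untreated library, and Il6 at 1.32 and 19.9, where free RNA would give 34.8 and 11.8 in the latter. Cxcl1 stood at 19.6 and 77.9 CPM, against 42.4 of free RNA in the untreated library, and Nfkbia, which encodes an inhibitor of NF-kB, at 156 and 525 CPM, against 53.6. The immediate early genes summed to 6457 CPM in control, 14307 in untreated and 5645 in treated podocytes, 7 of 8 being higher in the untreated than in the control library, and their part was again not tested.

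The genes most like a member over 32 groups of at least 50 cells (class by library) were sought among 14370 genes by the Pearson correlation of log2(CPM + 10), as a description, since the groups share libraries. For Il1b they were Spi1 (0.986), which encodes PU.1 and is itself a marker of the general myeloid gate, Fgr (0.982) and Nfam1 (0.981). For Il1rn they were Clec4d (0.990), Gm34084 (0.979) and Csf2rb (0.966), and for Il1r2 Dhrs9 (0.988), Pram1 (0.968) and Slfn4 (0.966). For Il18 they were Sirpa (0.932), Tlr7 (0.915) and Slc8b1 (0.893), and for Il1r1 Nbea (0.951), Sox4 (0.941) and Pde8b (0.932). The genes beside Il1b, Il1rn and Il1r2 are mostly known from myeloid cells, while those beside Il1r1 are not.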

How the data were processed

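Single-cell RNA was measured in 3 libraries of dissociated mouse glomeruli, 1 per condition. The deposited values are raw UMI counts per gene and barcode that the authors made with Cell Ranger (STAR alignment, mm10, gene and barcode matrices not filtered for cells). The protocol gives version 1.1.0 of Cell Ranger and the file headers version 4. The total was 94903163 UMIs in the control, 103319588 in the untreated and 90812138 in the treated library.

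Barcodes with at least 1000 UMIs and at most 10% mitochondrial UMIs were kept, giving 41713 cells. Classes came from marker gates that use no member gene, and 305, 1221 and 1040 barcodes that passed in several lineages were left out in place of a doublet caller. Another 515, 1073 and 2556 had no class, because none passed or because classes of a lineage tied. UMIs were summed per class, and a gene counted as past 2-fold when it had at least 20 UMIs over both libraries and both classes held at least 20 cells. A count of 0 was set to 3 counts for a ratio, and where this turned the direction the log2 ratio was set to 0. Free RNA in a class was estimated as the median, over markers of other lineages, of their level relative to free RNA. Levels have exact Poisson, shares exact binomial and ratios exact conditional binomial 95% intervals. Genes were named as all 10 members, up to 3 genes per pathway list and comparison by size of ratio, and the 3 most similar genes for 5 members. Il6 and Ptgs2 in mesangial cells, Nfkbia and Cxcl1 in podocytes, the IL-1 induced genes in endothelial cells, Myd88, Pycard and Casp4 in a further class each, the immediate early and heat shock genes and the split of macrophages were chosen after their values were seen. The members and gene lists were chosen with earlier results of these data known. The ratio step was tested on simulated data. Python 3.11.15, numpy 2.4.6, scipy 1.17.1, pandas 2.3.3 and matplotlib 3.10.9 were used.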

Additional observations from a re-analysis of the deposited data

Results flagged for a closer look

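Between the treated and untreated MRL/lpr libraries Il1rn had a log2 ratio of 2.18 in macrophages and -0.26 in neutrophils. Il18 had a log2 ratio of 0.42 in inflammatory monocytes and -2.05 in macrophages. Each pair of classes had opposite directions, and the difference between them was not tested, since each class came from 1 library per condition.

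Members were also counted in cells left without a class, which entered no comparison. These cells passed no class or had a tie between classes of a lineage. There Il1b stood at 85.6 CPM in the untreated and 189 CPM in the treated library, against 7.30 in the control. Il1rn stood at 32.1 CPM in the treated library and was not counted in the control. Il18 stood at 7.25 and 15.3 CPM in the untreated and treated libraries, against 1.62 in the control, and Nlrp3 at 8.92 and 15.4 CPM, against 4.46. Il1a and Il1r2 were above the control in the treated library, at 4.17 and 5.28 CPM. The cells behind these values were not identified.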

How the results depend on the processing

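Among the ratios past 2-fold, no value that an alternative gave was reversed. Direction is given here for these ratios only. Levels of members were compared with their own counting intervals. With free RNA subtracted 59 levels moved outside the interval and 141 did not. With markers at 4 times free RNA 40 moved and 160 did not, and as a mean over cells 39 moved and 161 did not. Fewer levels moved under each other setting. For 31 ratios past 2-fold, 11 alternative settings gave 321 of 341 possible values, of which 321 kept the direction and 284 stayed past 2-fold. The 20 missing values belonged to 14 ratios, 13 of them with free RNA subtracted, where a level became 0: Il1b (endothelial, mesangial, podocyte), Il18 (endothelial, mesangial) and Nlrp3 (endothelial) untreated over control, and Il1b (endothelial, podocyte), Il1rn (endothelial, mesangial), Nlrp3 (endothelial), Il18 (mesangial) and Il1r1 (macrophage) treated over untreated. The other 7 missing values had too few cells or UMIs. The 14 member and class pairs past 2-fold between untreated and control became 8 with free RNA subtracted and 25 with no UMI minimum, and the 17 pairs between treated and untreated became 10 with free RNA subtracted. The log2 ratio of Il1b in macrophages was -1.64 with 4 markers, -1.66 with free RNA subtracted, -1.18 as a mean over cells and -1.44 centred on the median gene. In the split added after seeing the data it was -0.43 with Cd5l only, -1.89 with both marker sets and -0.13 with neither. The share of Il1b UMIs in untreated monocytes, macrophages and neutrophils was 80.2% with at least 500 UMIs per cell, 82.4% with at most 5% mitochondrial UMIs, 86.2% within 200 to 3000 genes, 83.3% with 2 markers, 75.0% with 4, 83.4% with markers at 4 times free RNA, 84.2% with mixed barcodes kept and 83.8% with free RNA subtracted. The cause of these shifts was not tested. Of the 31 ratios, 12 had a value short of 2-fold under at least 1 setting, and 21 were short or had no value under at least 1. The 10 past 2-fold under all 11 settings were Il1rn in patrolling monocytes and Il18 and Il18bp in podocytes untreated over control, and Il1r2 in patrolling monocytes and Il1a, Il1b, Il1rn, Il18, Il18bp and Nlrp3 in macrophages treated over untreated. Beside those given with their results, the values short of 2-fold were of Il1r1 in podocytes under 2 settings (0.97 to 0.99) untreated over control, and Nlrp3 in endothelial cells under 3 (0.57 to 0.88), Il18 in mesangial cells under 2 (0.66 to 0.93) and Il1b in endothelial cells under 5 (0.14 to 0.96) and podocytes under 2 (0.07 to 0.995) treated over untreated. No paired analysis was possible because each condition had 1 library, and leaving out a replicate was not possible for the same reason. The small counts of control leukocytes and treated podocytes widen their intervals, and the spread between mice was not measured.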
